A study of Rattus norvegicus with 48 samples.

Results

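Genes that build, crosslink and cut the extracellular matrix were followed in rat liver and in preneoplastic liver nodules. They were taken by symbol from the probe annotation of the array: collagens (Col), laminins (Lama, Lamb, Lamc), matrix metalloproteinases (Mmp), their tissue inhibitors (Timp), the Adamts family, fibulins (Fbln), fibrillins (Fbn) and lysyl oxidases (Lox). Fn1, Sparc, Lum, Dcn, Bgn, Vcan and the nidogens were added by name, and each gene was read from its brightest probe. This gave 81 genes of 13337 named on the array, in 10 classes. Of these, 46 were detected (detection p under 0.05) on at least 8 of 48 arrays and were tested, and 35 were too dim. Nidogen genes and Col4a2 had no probe under these symbols.

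RNA came from male Fischer rats and was hybridised to 1-colour bead arrays, whose probes glow in proportion to the labelled RNA they capture. The 5 groups were control liver (8 arrays), preneoplastic nodules negative for keratin 19 (KRT-19, 10 arrays), KRT-19-positive nodules (10), and such positive nodules after T3 for 2 d (10) or for 4 d (10). T3, triiodothyronine, is the active thyroid hormone, and KRT-19 marks bile duct cells and liver progenitor cells. The labels give neither the way the nodules were induced nor the dose of T3 nor the age of the animals, and no nodule group negative for KRT-19 received T3. The p-values here set differences of group means against the spread among these arrays. Since nothing states whether each array is a separate animal, that spread could be technical. The p-values would then be too small for differences among animals.

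The liver's matrix is sparse. Fibrillar collagens form its load-bearing fibres, type IV collagen and laminins form basement membranes, and proteoglycans and glycoproteins organise both. Lysyl oxidases crosslink collagen and elastin, matrix metalloproteinases and ADAMTS enzymes cut the network, and TIMPs block the metalloproteinases. In liver most fibrillar collagen is made by stellate cells and portal fibroblasts, which multiply and become myofibroblasts in fibrosis. In whole tissue, fewer cells of a type and less RNA per cell cannot be told apart.

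Values below are background-corrected, quantile-normalised log2 levels; 1 unit is a doubling of brightness, and differences are in log2. Levels of different probes cannot be compared. A gene was called at an adjusted p under 0.05 in a limma model of all 48 arrays, adjusted over 11558 features. Between 8380 and 10695 of 22523 probes were detected per array, and the median raw intensity ran from 93 to 198. Krt19 followed the labels of the untreated groups: its level was 5.67 to 7.94 (median 6.39) in control liver, 6.06 to 10.09 (median 8.56) in nodules labelled negative and 11.03 to 12.73 (median 11.65) in those labelled positive. KRT-19-negative nodules thus overlapped control liver and stood 1.87 ± 0.40 (SE, adjusted p = 0.000439) above it on average. After T3, Krt19 lay between 8.87 to 11.74 (median 10.40) at 2 d and 7.47 to 8.77 (median 7.92) at 4 d. KRT-19-negative replicate 9 lay nearer to the mean of the KRT-19-positive nodules (distance 0.349) than to its own group (0.415), the only array of 48 nearer to another group. Without it, 16 rather than 18 matrix genes were called against control, and 26 rather than 25 between the nodule types. Comparisons that share a group are not independent of each other.

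In both nodule types more matrix genes were called above control liver than below it, and after 4 d of T3 more were called lower than higher. At 2 d of T3 the numbers in both directions were close, and they depended on the scaling. Of the 46 tested, 13 were higher and 5 lower in the KRT-19-negative nodules than in control liver, where 11.2% of all features were higher and 10.7% lower (21.9% in all). The KRT-19-positive nodules had 23 higher and 9 lower than control liver, against 24.8% and 23.9% of all features (48.7% in all). Set directly against KRT-19-negative nodules, 21 were higher and 4 lower in KRT-19-positive ones, against 17.3% and 14.7% (32.0% in all).

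T3 for 2 d left 6 genes higher and 7 lower than in untreated KRT-19-positive nodules, close to the background of 15.8% higher and 15.5% lower (31.3% in all). After 4 d, 5 were higher and 22 lower, against 27.1% and 26.6% of all features (53.7% in all). From 2 d to 4 d, 4 rose and 20 fell, where 22.4% of features rose and 22.1% fell (44.4% in all). Compared with control liver, T3-treated nodules at 4 d had 12 matrix genes higher and 5 lower, against 21.7% and 20.3% (42.0% in all). Median differences of the 46 genes were 0.18 and 0.47 for nodules negative and positive for KRT-19 against control, -0.04 and -0.14 for 2 d and 4 d of T3 against no T3, and 0.13 for 4 d of T3 against control. Over all features the 7 medians lay between -0.03 and 0.01.

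A gene that is bright in a single group can pass the detection filter through that group, so the same counts were made without the filter, over all 81 genes and 22067 features. In KRT-19-positive nodules 29.6% of matrix genes were then higher and 9.88% lower than in control, against 12.7% and 12.6% of all features. The shares for KRT-19-negative nodules were 13.6% and 2.47% against 5.21% and 4.98%, and between the nodule types 25.9% and 4.94% against 8.33% and 6.97%. At 2 d of T3 they were 4.94% and 7.41% against 7.56% and 7.54%. At 4 d they were 7.41% and 28.4% against 14.4% and 14.1%. Between 2 d and 4 d the shares were 7.41% and 23.5% against 11.1% and 10.7%, and for 4 d of T3 against control 13.6% and 6.17% against 10.8% and 10.3%. With and without the filter, matrix genes were called higher more often than all features in both nodule types without T3, and lower more often at 4 d.

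The direction of small differences depended on the scaling. When arrays were brought to a common median in place of quantile normalisation, the median of all features moved to 0.31 for KRT-19-positive nodules against control, 0.29 between the nodule types, -0.37 at 2 d and -0.24 at 4 d of T3, and stayed between 0.04 and 0.05 in the other 3 comparisons. Matrix genes called were then 9 higher and 1 lower for nodules without KRT-19 against control (all features 654 and 320), 26 higher and 2 lower in KRT-19-positive ones (4820 and 894), and 25 higher and 2 lower between the nodule types (4169 and 377). For T3 they were 3 higher and 18 lower at 2 d (415 and 5321), 1 higher and 24 lower at 4 d (1292 and 4634), 3 higher and 13 lower between 2 d and 4 d (2078 and 1343), and 11 higher and 2 lower at 4 d against control (1871 and 1123). Relative to the moved median, all 156 called differences of matrix genes kept their direction. Subtracting that median nearly restores the centring of quantile normalisation, so the outcome was close to fixed and is no separate support. Without the subtraction 3 of the called differences reversed. In all 36 of the 156 calls were lost under this scaling and 20 others gained, and those that bear on genes described below stand beside them.

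Dim genes also depended on the background. Without its subtraction the differences of KRT-19-positive nodules from control shrank to 2.65 for Mmp12, 1.06 for Col1a1, 1.17 for Fbln5, 0.93 for Lox, 1.07 for Loxl1, 0.60 for Loxl2, 0.55 for Fbn1 and -0.97 for Adamts7, all still called. At 4 d of T3 against untreated nodules those of Col1a1, Lamb2, Lox and Loxl2 became -0.99, -0.97, -0.60 and -0.48, still called as well. When each array's count of detected probes entered the fit, 9 of the 25 calls between the nodule types were lost, those of Bgn, Col3a1, Col5a1, Col5a2, Fbln5, Fn1, Lamb2, Lamc1 and Mmp23 (adjusted p from 0.0734 to 0.143).

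**Figure D1:**
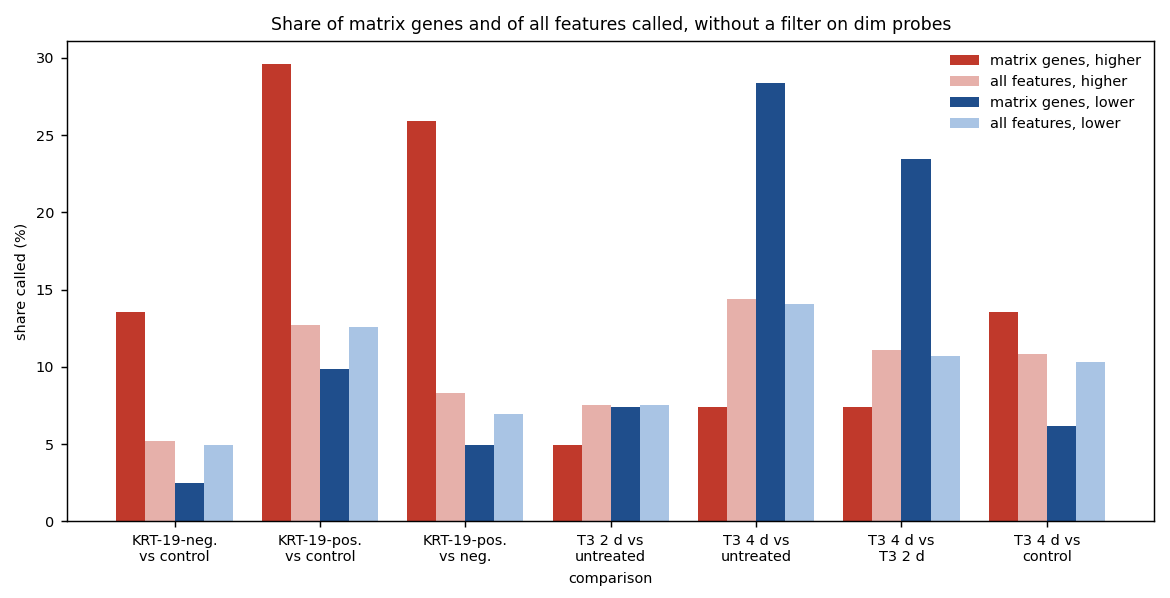
Share of the 81 matrix genes and of all 22067 features called higher or lower (%, vertical axis) in each of the 7 comparisons (horizontal axis), without a filter on dim probes. The red bar of matrix genes reaches 29.6% for KRT-19-positive nodules against control, and the dark blue bar reaches 28.4% for 4 d of T3 against no T3.

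Fibrillar collagens, 6 of 9 tested, were among the genes that differed most. In KRT-19-positive nodules 5 of the 6 were higher than in control (median of the 6, 1.53), and after 4 d of T3 4 of the 6 were lower than in untreated nodules (median -0.85). Col1a1 and Col1a2 encode the chains of type I collagen, the main fibre of scar tissue. Col1a1 ranged from 4.58 to 5.85 (median 5.15) in control liver, from 5.11 to 6.75 (median 5.64) in KRT-19-negative nodules and from 5.72 to 8.65 (median 7.54) in KRT-19-positive nodules. It was detected on 2 of 8 control arrays and on every KRT-19-positive array, and the groups overlapped. The gene was 2.25 ± 0.31 (SE, adjusted p = 2.96e-08) higher in the KRT-19-positive nodules than in control liver (1.06 without background subtraction) and 1.61 ± 0.30 (SE, adjusted p = 2.03e-05) higher than in KRT-19-negative ones, whose own difference from control was 0.64 ± 0.31 (SE, adjusted p = 0.145). With T3 it ranged from 5.27 to 7.23 (median 6.70) at 2 d and 4.61 to 6.25 (median 5.15) at 4 d, a fall by 0.84 ± 0.30 (SE, adjusted p = 0.0243) and then by 2.04 ± 0.30 (SE, adjusted p = 6.29e-08) in all. The 2 d call rested on single arrays (-0.70, adjusted p = 0.0656 without KRT-19-positive replicate 1).

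Col1a2 ranged from 9.79 to 10.37 (median 10.10) in control liver, from 10.40 to 11.83 (median 11.07) in KRT-19-negative nodules and from 11.70 to 12.90 (median 12.19) in KRT-19-positive nodules. All KRT-19-negative and all KRT-19-positive arrays lay above all controls, by 0.96 ± 0.19 (SE, adjusted p = 0.000146) and by 2.13 ± 0.19 (SE, adjusted p = 1.8e-13) on average. Under T3 the levels ran from 11.87 to 12.53 (median 12.19) at 2 d and 10.57 to 12.40 (median 10.84) at 4 d. The 2 d difference from untreated nodules was -0.05 ± 0.18 (SE, adjusted p = 0.854), and at 4 d the gene had fallen by 0.99 ± 0.18 (SE, adjusted p = 6.18e-06). Even so all T3-treated arrays at 4 d lay above control, by 1.13 ± 0.19 (SE, adjusted p = 2.88e-06). The Col1a1 difference there was 0.21 ± 0.31 (SE, adjusted p = 0.632). However, Col1a1 was detected on only 4 of the 10 arrays at 4 d and 2 of 8 control arrays. Its difference so near the detection limit may be understated, and the 2 chains cannot be compared there.

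Col3a1, the chain of type III collagen found beside type I in pliable fibres, ranged from 6.89 to 8.31 (median 8.05) in control liver, from 8.72 to 9.72 (median 9.15) in KRT-19-negative nodules and from 9.11 to 10.84 (median 10.04) in KRT-19-positive nodules. Neither nodule type overlapped control liver, and the differences were 1.24 ± 0.19 (SE, adjusted p = 1.84e-06) and 2.03 ± 0.19 (SE, adjusted p = 6.35e-13). After T3 the range was 8.99 to 10.08 (median 9.65) at 2 d and 7.52 to 8.80 (median 8.01) at 4 d. At 2 d the difference was -0.34 ± 0.18 (SE, adjusted p = 0.15), and at 4 d Col3a1 had fallen by 1.91 ± 0.18 (SE, adjusted p = 5.11e-13), with no overlap between the 4 d arrays and either the 2 d or the untreated ones. It then differed from control by 0.12 ± 0.19 (SE, adjusted p = 0.66).

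Type V collagen sits inside type I fibres and sets their width, and its chains parted after T3. Col5a1 was 0.94 and Col5a2 1.04 higher in the KRT-19-positive nodules than in control liver. At 4 d Col5a1 had fallen by 0.71 ± 0.16 (SE, adjusted p = 0.000147), while Col5a2 differed from untreated nodules by 0.05 ± 0.18 (SE, adjusted p = 0.844) and remained above every control array, by 1.09 ± 0.19 (SE, adjusted p = 3.83e-06). Col27a1 was called in none of the 7 comparisons, with differences of -0.31 to 0.03.

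**Figure D2:**
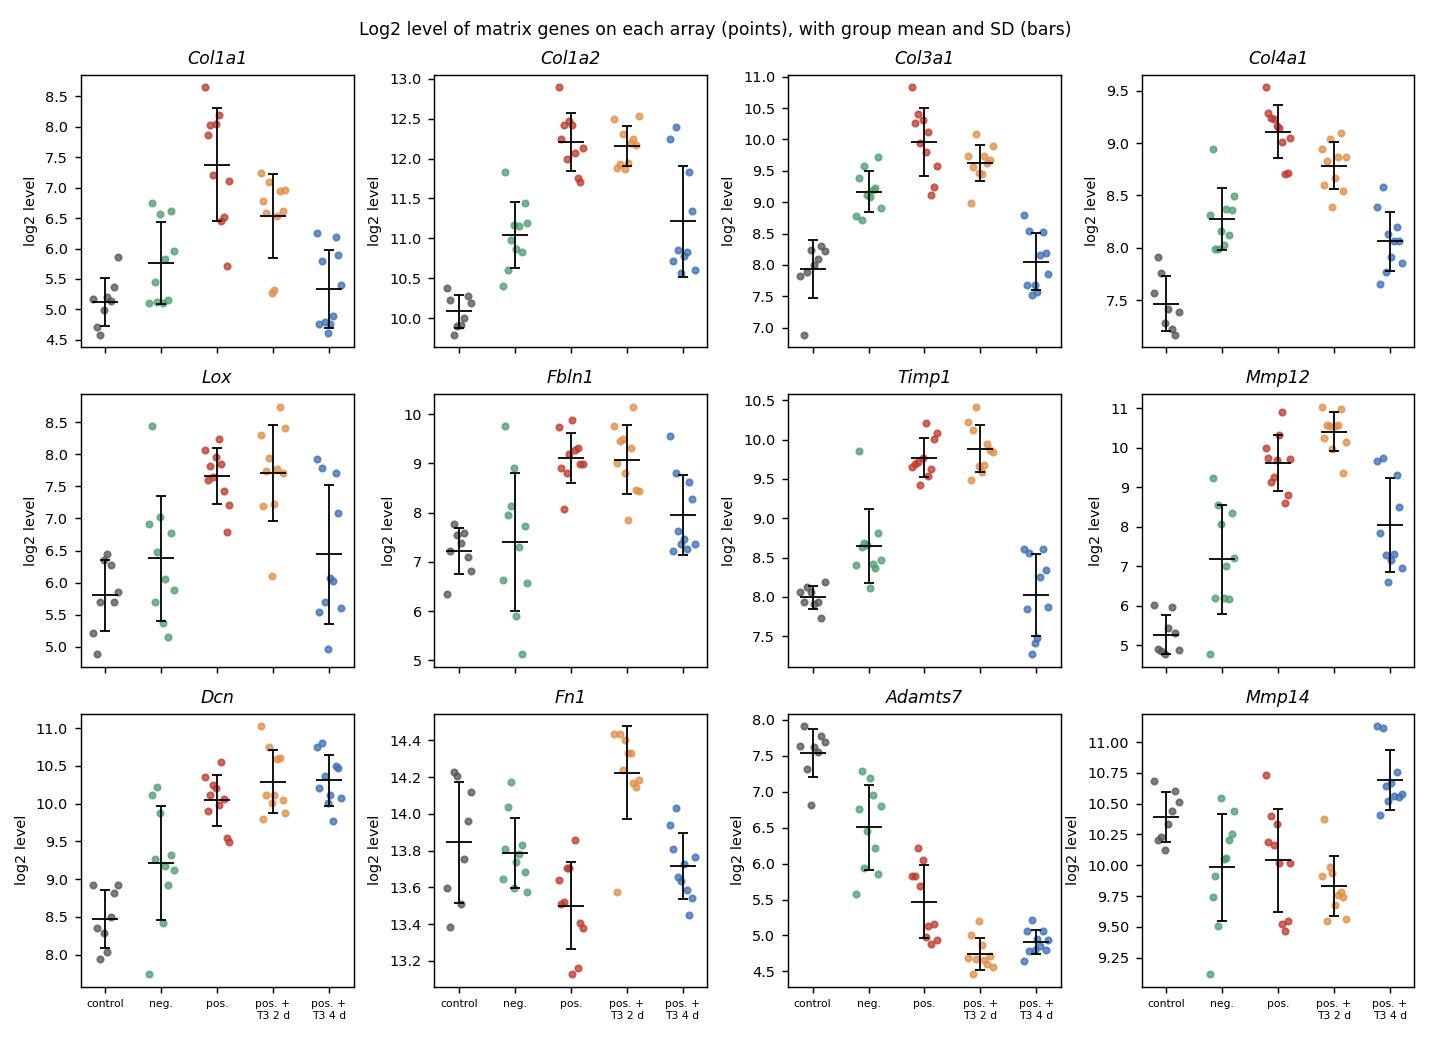
Log2 level (vertical axis of each panel) of 12 matrix genes on every array, by group (horizontal axis: control liver, KRT-19-negative, KRT-19-positive, KRT-19-positive with T3 for 2 d and for 4 d). Points are arrays and bars the group mean and SD; Col3a1 at 4 d of T3 lies at 7.52 to 8.80 (median 8.01), overlapping control liver at 6.89 to 8.31 (median 8.05).

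Promoters were read for genes of 4 classes that rose in KRT-19-positive nodules, to show the letters around their start sites beside their values. RefSeq (GRCr8) gave a window of 300 bases, 250 before to 50 after the start, for 60 of the 81 genes, and Col1a1, Col3a1 and Dcn were not among them. The windows are chr4:33518307-33518606 (+) for Col1a2, chr16:84885347-84885646 (+) for Col4a1, chrX:3771073-3771372 (-) for Timp1 and chr8:12866402-12866701 (+) for Mmp12. Capitals mark matches on either strand to CCAAT (the CCAAT box), to TATAAA (the TATA box), to GGGCGG (the GC box) and to TGANTCA (the AP-1 element). No marked match overlaps another.
Col1a2: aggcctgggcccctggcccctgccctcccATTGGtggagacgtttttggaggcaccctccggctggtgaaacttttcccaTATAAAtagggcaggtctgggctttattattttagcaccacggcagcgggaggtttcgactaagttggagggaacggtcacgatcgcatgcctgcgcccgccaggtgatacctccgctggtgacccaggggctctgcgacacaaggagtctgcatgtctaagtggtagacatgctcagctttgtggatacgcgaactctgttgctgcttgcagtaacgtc
Col4a1: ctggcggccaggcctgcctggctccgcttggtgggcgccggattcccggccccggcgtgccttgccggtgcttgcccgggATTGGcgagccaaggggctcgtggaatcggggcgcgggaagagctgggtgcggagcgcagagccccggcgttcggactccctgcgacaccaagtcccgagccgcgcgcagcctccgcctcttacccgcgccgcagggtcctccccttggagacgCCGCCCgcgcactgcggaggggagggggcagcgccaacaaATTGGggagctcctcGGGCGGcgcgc
Timp1: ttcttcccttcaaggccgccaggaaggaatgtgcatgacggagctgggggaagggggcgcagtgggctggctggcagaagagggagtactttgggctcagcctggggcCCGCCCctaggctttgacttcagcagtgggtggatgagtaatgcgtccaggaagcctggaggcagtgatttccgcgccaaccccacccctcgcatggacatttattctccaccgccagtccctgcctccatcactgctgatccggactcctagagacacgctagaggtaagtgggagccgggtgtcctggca
Mmp12: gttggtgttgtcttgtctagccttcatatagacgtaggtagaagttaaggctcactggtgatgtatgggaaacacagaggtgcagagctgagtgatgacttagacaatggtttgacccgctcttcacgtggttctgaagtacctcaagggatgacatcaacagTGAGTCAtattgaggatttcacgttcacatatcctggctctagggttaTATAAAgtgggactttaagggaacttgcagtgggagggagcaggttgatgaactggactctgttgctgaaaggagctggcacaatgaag
The Col1a2 window holds a match to the TATA box from base -170 and to the CCAAT box on the other strand from base -221. Both are counted from the RefSeq start, which was used as given. That start may lie downstream of the one this TATA match would give, so these positions hold for the RefSeq start only. Mmp12 holds the TATA box from base -39 and the AP-1 element from base -87. The Timp1 window has 1 GC box and Col4a1 has 2, beside 2 CCAAT boxes. These letters are common: of 27457 promoter windows of the same length, 37.7% hold the CCAAT box, 14.3% the TATA box, 34.9% the GC box and 7.33% the AP-1 element. Among the 60 matrix gene windows the shares were 30.0%, 23.3%, 48.3% and 13.3%. The matches are a description of the sequence and not sites of binding.

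Of the basement membrane collagens, 4 of 6 were tested, with 1 higher (Col4a1) and 1 lower (Col18a1) in the KRT-19-positive nodules than in control liver. Col4a1, a chain of the type IV network of the main basement membranes, whose promoter is printed above, ranged from 7.17 to 7.92 (median 7.40) in control liver, from 7.99 to 8.94 (median 8.23) in KRT-19-negative nodules and from 8.70 to 9.54 (median 9.16) in KRT-19-positive nodules. Both nodule types lay entirely above control, by 0.81 ± 0.13 (SE, adjusted p = 2.21e-06) and 1.64 ± 0.13 (SE, adjusted p = 1.02e-15). T3-treated nodules covered 8.39 to 9.10 (median 8.85) at 2 d and 7.66 to 8.58 (median 8.07) at 4 d. It fell by 1.05 ± 0.12 (SE, adjusted p = 1.35e-10) at 4 d, with no overlap with untreated nodules, and was still 0.60 ± 0.13 (SE, adjusted p = 0.000109) above control. Its small fall at 2 d (-0.32) was lost without single arrays (-0.28, adjusted p = 0.078 without KRT-19-positive replicate 1). Col18a1, whose C-terminal part is endostatin, went the other way: it was 0.48 ± 0.09 (SE, adjusted p = 2.96e-05) lower in the KRT-19-positive nodules than in control liver, without overlap, and rose by 0.36 ± 0.09 (SE, adjusted p = 0.000634) after 4 d of T3. Under median scaling both calls were lost (-0.13, adjusted p = 0.643, and 0.06, adjusted p = 0.821). Col4a3 and Col4a4, chains best known from kidney, were detected on 9 and 12 arrays. Col4a3 was called higher at 2 d (0.29; 0.26, adjusted p = 0.0658 without KRT-19-positive replicate 9) and against control at 4 d (0.34), and Col4a4 in no comparison.

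Laminins, 3 of 5 tested, split by chain. Lamb2, the beta 2 chain, ranged from 6.55 to 7.70 (median 6.95) in control liver, from 6.85 to 8.07 (median 7.41) in KRT-19-negative nodules and from 7.70 to 8.52 (median 8.18) in KRT-19-positive nodules. KRT-19-positive arrays lay above all controls, by 1.10 ± 0.17 (SE, adjusted p = 3.02e-07). In T3-treated nodules the range was 6.95 to 7.70 (median 7.48) at 2 d and 5.70 to 7.11 (median 6.53) at 4 d. It fell by 0.66 ± 0.16 (SE, adjusted p = 0.00116) at 2 d and by 1.66 ± 0.16 (SE, adjusted p = 9.45e-13) at 4 d, where no array reached the untreated range and the mean was 0.57 ± 0.17 (SE, adjusted p = 0.00547) below control, a call that median scaling ended (-0.39, adjusted p = 0.216). Lamc1, the gamma 1 chain shared by most laminins, was 0.85 ± 0.16 (SE, adjusted p = 1.03e-05) higher in the KRT-19-positive nodules than in control liver. After 4 d of T3 it differed from untreated nodules by -0.13 ± 0.15 (SE, adjusted p = 0.469), which median scaling turned into a call (-0.61, adjusted p = 0.00625), and from control by 0.71 ± 0.16 (SE, adjusted p = 0.000199). Lamb3, a chain of an epithelial laminin, was called in no comparison.

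The other collagens tested were Col6a1, Col7a1, Col8a1 and Col14a1, 4 of 10. Col14a1, which binds the surface of collagen fibres, was 1.02 ± 0.12 (SE, adjusted p = 3.86e-10) higher in the KRT-19-positive nodules than in control liver and fell by 0.97 ± 0.11 (SE, adjusted p = 2.43e-10) after 4 d of T3, without overlap from the 2 d arrays. Col6a1, of the beaded filaments around cells, differed by 0.99 and -0.79 in the same comparisons, and Col8a1, of vessel walls, by 0.97 and -0.83, the first lost once the count of detected probes entered the fit (0.37, adjusted p = 0.283). None of the 4 was called against control at 4 d. Col7a1, the anchoring fibril collagen, was called only at 2 d of T3 (0.40; 0.35, adjusted p = 0.0792 without T3 2 d replicate 7).

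Of the small proteoglycans that coat collagen fibres, Dcn and Bgn were tested and are described in turn. Dcn, decorin, ranged from 7.94 to 8.92 (median 8.43) in control liver, from 7.74 to 10.22 (median 9.22) in KRT-19-negative nodules and from 9.49 to 10.56 (median 10.09) in KRT-19-positive nodules. KRT-19-positive arrays lay above all controls, by 1.57 ± 0.21 (SE, adjusted p = 1.44e-08), and KRT-19-negative ones spread from below the lowest control to above the KRT-19-positive median. T3 gave values of 9.79 to 11.02 (median 10.11) at 2 d and 9.77 to 10.81 (median 10.29) at 4 d. It differed from untreated nodules by 0.26 ± 0.20 (SE, adjusted p = 0.275) at 4 d and stayed 1.83 ± 0.21 (SE, adjusted p = 5.45e-10) above control, with no overlap. Bgn, biglycan, ranged from 6.78 to 7.62 (median 7.00) in control liver, from 6.80 to 7.98 (median 7.50) in KRT-19-negative nodules and from 7.37 to 8.30 (median 7.81) in KRT-19-positive nodules. It was 0.69 ± 0.14 (SE, adjusted p = 3.08e-05) higher in the KRT-19-positive nodules than in control liver, with overlap. Treated arrays ran from 6.81 to 7.54 (median 7.20) at 2 d and 6.13 to 7.07 (median 6.73) at 4 d, a fall by 0.61 ± 0.13 (SE, adjusted p = 0.000218) at 2 d and by 1.11 ± 0.13 (SE, adjusted p = 2.75e-10) at 4 d, to 0.42 ± 0.14 (SE, adjusted p = 0.0114) below control. That call was lost under median scaling (-0.27, adjusted p = 0.328). The paths of both proteoglycans rest on a single probe each.

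Of 6 glycoprotein and elastic fibre genes tested, 3 were higher and 1 lower in the KRT-19-positive nodules than in control liver. Fbln1 and Fbln5 encode fibulins, glycoproteins of elastic fibres and basement membranes. Fbln1 ranged from 6.35 to 7.76 (median 7.30) in control liver, from 5.12 to 9.76 (median 7.51) in KRT-19-negative nodules and from 8.08 to 9.89 (median 9.09) in KRT-19-positive nodules. KRT-19-negative arrays covered a wider range than any other group, on both sides of control (0.18 ± 0.38 (SE, adjusted p = 0.789)), and all KRT-19-positive arrays lay above control, by 1.90 ± 0.38 (SE, adjusted p = 3.51e-05). With T3 Fbln1 ranged from 7.85 to 10.15 (median 9.16) at 2 d and 7.23 to 9.55 (median 7.55) at 4 d, lower at 4 d by 1.16 ± 0.36 (SE, adjusted p = 0.00518). Fbln5, which brings elastin and lysyl oxidases together, was 1.24 ± 0.20 (SE, adjusted p = 3.67e-06) higher in KRT-19-negative and 2.07 ± 0.20 (SE, adjusted p = 1.01e-12) higher in the KRT-19-positive nodules than in control liver, without overlap. At 4 d of T3 it had fallen by 1.01 ± 0.19 (SE, adjusted p = 8.08e-06) and was still 1.06 ± 0.20 (SE, adjusted p = 1.6e-05) above control. Fbn1, the main fibrillin of microfibrils, was 1.25 higher in the KRT-19-positive nodules than in control liver and fell by 0.60 ± 0.18 (SE, adjusted p = 0.00374) at 4 d, to 0.65 above control. Fbn2 was called in no comparison and its second probe was detected on no array.

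Fn1 and Sparc, both known as products of activated stellate cells, were not called higher in KRT-19-positive nodules. Fn1 encodes fibronectin, which hepatocytes also make in quantity for plasma, and it ranged from 13.38 to 14.23 (median 13.86) in control liver, from 13.58 to 14.18 (median 13.76) in KRT-19-negative nodules and from 13.13 to 13.86 (median 13.52) in KRT-19-positive nodules. It was lower in the KRT-19-positive nodules than in control liver by 0.34 ± 0.11 (SE, adjusted p = 0.009), with overlap, and not under median scaling (-0.22, adjusted p = 0.298). Levels under T3 were 13.58 to 14.44 (median 14.28) at 2 d and 13.45 to 14.03 (median 13.69) at 4 d. It rose by 0.72 ± 0.11 (SE, adjusted p = 3.84e-07) at 2 d, where 9 of 10 arrays lay above every untreated array and replicate 2 at 13.58 did not, and at 4 d it differed from untreated nodules by 0.21 ± 0.11 (SE, adjusted p = 0.0838). The 2 d rise was not called under median scaling (0.26, adjusted p = 0.174). Sparc, osteonectin, ranged from 9.30 to 10.78 (median 10.15) in control liver, from 9.34 to 10.78 (median 10.01) in KRT-19-negative nodules and from 9.39 to 11.35 (median 10.52) in KRT-19-positive nodules. Its values in the positive group were wide and overlapped control, and the difference was 0.35 ± 0.22 (SE, adjusted p = 0.191), which became a call under median scaling (0.78, adjusted p = 0.0284) and with array weights (0.49, adjusted p = 0.0354). With T3 it ranged from 9.70 to 11.11 (median 10.08) at 2 d and 9.97 to 10.84 (median 10.34) at 4 d, and in the fit used throughout Sparc was called in none of the 7 comparisons.

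Lysyl oxidases were tested in full, 5 of 5, and 3 were higher in the KRT-19-positive nodules than in control liver. Lox, the founding crosslinking enzyme, ranged from 4.88 to 6.44 (median 5.78) in control liver, from 5.15 to 8.44 (median 6.27) in KRT-19-negative nodules and from 6.80 to 8.25 (median 7.73) in KRT-19-positive nodules. KRT-19-positive arrays lay above all controls, by 1.86 ± 0.36 (SE, adjusted p = 1.97e-05), while the KRT-19-negative difference was 0.58 ± 0.36 (SE, adjusted p = 0.268). Under T3 the levels ran from 6.11 to 8.75 (median 7.75) at 2 d and 4.97 to 7.93 (median 6.05) at 4 d: the 2 d difference was 0.05 ± 0.34 (SE, adjusted p = 0.924), and at 4 d the gene was lower by 1.22 ± 0.34 (SE, adjusted p = 0.00198). Loxl1, which crosslinks elastin, was detected on no control array, on 7 of 10 KRT-19-negative arrays and on all arrays of the other groups. Its level was at least 1.4-fold higher in KRT-19-negative (adjusted p = 0.00188) and at least 3.68-fold higher in KRT-19-positive nodules (adjusted p = 2.16e-11). Such bounds set the mean of the detected group against the lowest detected signal of each control array. Loxl1 ranged from 6.81 to 8.29 (median 7.28) in untreated KRT-19-positive nodules and from 6.35 to 8.01 (median 6.85) at 2 d and 5.57 to 7.44 (median 6.23) at 4 d of T3, a fall by 0.96 ± 0.25 (SE, adjusted p = 0.000859) at 4 d, where it was at least 1.89-fold above control (adjusted p = 4.61e-06). On its dimmer probe the 4 d difference from untreated nodules was -1.46. The 4 d difference from control was 0.53 on that probe and 1.50 on the brighter one, so the probes differ on how much stayed above control.

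Loxl2, which acts on type IV collagen, was 1.39 ± 0.26 (SE, adjusted p = 1.59e-05) higher in the KRT-19-positive nodules than in control liver, without overlap, and lower by 1.07 ± 0.25 (SE, adjusted p = 0.000266) after 4 d of T3. Its lower level at 2 d (-0.72) depended on single arrays (-0.57, adjusted p = 0.069 without T3 2 d replicate 6). Loxl4 went the other way, 0.71 ± 0.15 (SE, adjusted p = 8.58e-05) lower in the KRT-19-positive nodules than in control liver and -0.58 against control after 4 d of T3, though it was detected on 21 of 48 arrays. Loxl3, detected on 9 arrays, was called lower at 4 d of T3 alone (-0.30; -0.24, adjusted p = 0.0596 without KRT-19-positive replicate 9).

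Matrix metalloproteinases, 9 of 20 tested, did not move as a class: 2 were higher and 3 lower in the KRT-19-positive nodules than in control liver, and 2 rose and 2 fell after 4 d of T3. Mmp12, macrophage elastase, had the largest difference of all matrix genes and its promoter is printed above. It ranged from 4.78 to 6.02 (median 5.10) in control liver, from 4.77 to 9.24 (median 7.11) in KRT-19-negative nodules and from 8.59 to 10.90 (median 9.70) in KRT-19-positive nodules. Control arrays detected it on 2 of 8, and every KRT-19-positive array lay above every control. The difference was 4.34 ± 0.41 (SE, adjusted p = 1.02e-12) in KRT-19-positive (2.65 without background subtraction) and 1.91 ± 0.41 (SE, adjusted p = 0.000469) in KRT-19-negative nodules, the latter with overlap. After T3 the range was 9.37 to 11.04 (median 10.55) at 2 d and 6.61 to 9.75 (median 7.58) at 4 d. The 2 d difference was 0.79 ± 0.39 (SE, adjusted p = 0.121); at 4 d Mmp12 had fallen by 1.57 ± 0.39 (SE, adjusted p = 0.000632) and all arrays were still above control, by 2.77 ± 0.41 (SE, adjusted p = 2.45e-07).

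Mmp14, the membrane-bound enzyme that activates pro-MMP2, ranged from 10.12 to 10.69 (median 10.39) in control liver, from 9.12 to 10.55 (median 10.06) in KRT-19-negative nodules and from 9.46 to 10.73 (median 10.09) in KRT-19-positive nodules. The groups overlapped, and its lower level in KRT-19-positive nodules (-0.35) was lost without single arrays (-0.29, adjusted p = 0.105 without KRT-19-positive replicate 8) and turned to 0.09 when arrays were scaled to a common median, where the median of all features stood at 0.31. T3-treated nodules covered 9.55 to 10.38 (median 9.77) at 2 d and 10.41 to 11.13 (median 10.61) at 4 d. It rose by 0.86 ± 0.14 (SE, adjusted p = 1.16e-06) from 2 d to 4 d, with no overlap, to 0.65 ± 0.14 (SE, adjusted p = 9.23e-05) above untreated nodules. Under median scaling the last call was lost (0.33, adjusted p = 0.287). Mmp2, gelatinase A, ranged from 4.98 to 6.46 (median 5.73) in control liver, from 4.88 to 5.90 (median 5.65) in KRT-19-negative nodules and from 5.05 to 5.88 (median 5.47) in KRT-19-positive nodules, with no call among these groups. With T3 Mmp2 ranged from 5.58 to 6.67 (median 6.07) at 2 d and 5.18 to 6.20 (median 5.70) at 4 d, higher at 2 d by 0.70 ± 0.16 (SE, adjusted p = 0.000615) and different from untreated nodules at 4 d by 0.26 ± 0.16 (SE, adjusted p = 0.179).

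Mmp19 was -0.45 against control in KRT-19-positive nodules (0.08 under the same median scaling) and rose by 0.54 ± 0.14 (SE, adjusted p = 0.00133) after 4 d of T3, which that scaling reduced to 0.10, adjusted p = 0.686. Mmp23 was detected on no control array and on 8 of 10 KRT-19-positive arrays, at least 1.15-fold higher (adjusted p = 0.000308), and was lower by 0.55 ± 0.13 (SE, adjusted p = 0.00032) at 4 d. Mmp16, detected on 19 arrays, was -0.45 in KRT-19-positive nodules and -0.42 after 4 d of T3, both against control and both lost under median scaling (-0.31, adjusted p = 0.0897, and -0.35, adjusted p = 0.0821). Mmp9, Mmp13 and Mmp15 were called in no comparison, with differences between -0.35 and 0.35.

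Timp1, the inducible inhibitor of metalloproteinases, changed under T3 much as Col3a1 did, but not as the fibrillar collagens in general. Timp1 ranged from 7.73 to 8.18 (median 8.00) in control liver and from 8.12 to 9.86 (median 8.55) in KRT-19-negative nodules. In KRT-19-positive nodules it ranged from 9.42 to 10.21 (median 9.70). KRT-19-positive arrays lay above all controls, by 1.78 ± 0.17 (SE, adjusted p = 8.26e-13), and KRT-19-negative ones were 0.65 ± 0.17 (SE, adjusted p = 0.0034) above control on average. In T3-treated nodules the range was 9.49 to 10.42 (median 9.86) at 2 d and 7.27 to 8.61 (median 8.06) at 4 d. The 2 d difference was 0.11 ± 0.16 (SE, adjusted p = 0.625); at 4 d the gene had fallen by 1.75 ± 0.16 (SE, adjusted p = 1.83e-13), with no array reaching the untreated or the 2 d range, and differed from control by 0.03 ± 0.17 (SE, adjusted p = 0.903). Timp2, the constitutive inhibitor that also helps MMP14 to activate pro-MMP2, ranged from 5.08 to 6.42 (median 5.59) in control liver, from 5.12 to 6.42 (median 5.63) in KRT-19-negative nodules and from 5.39 to 6.03 (median 5.79) in KRT-19-positive nodules, and from 5.53 to 6.55 (median 5.80) at 2 d and 5.24 to 6.79 (median 6.05) at 4 d of T3. The groups overlapped throughout, and Timp2 was called only against control at 4 d (0.43; 0.35, adjusted p = 0.118 without control replicate 4). Timp3 was not tested.

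Among ADAMTS genes, 5 of 13 were tested, and their directions differed. Adamts2, the enzyme that removes the N-propeptide of fibrillar procollagens, ranged from 6.56 to 7.54 (median 7.22) in control liver, from 7.57 to 8.81 (median 8.02) in KRT-19-negative nodules and from 8.63 to 9.91 (median 9.12) in KRT-19-positive nodules. Neither nodule type overlapped control, and the differences were 0.89 ± 0.21 (SE, adjusted p = 0.00121) and 1.97 ± 0.21 (SE, adjusted p = 2.44e-11). T3 gave values of 7.89 to 9.53 (median 9.21) at 2 d and 6.67 to 8.49 (median 7.21) at 4 d, with a 2 d difference of -0.05 ± 0.20 (SE, adjusted p = 0.879) and a fall by 1.76 ± 0.20 (SE, adjusted p = 9.33e-11) at 4 d, to 0.21 ± 0.21 (SE, adjusted p = 0.454) against control. Adamts7, which cuts cartilage oligomeric matrix protein, ran the opposite way. It ranged from 6.82 to 7.91 (median 7.63) in control liver, from 5.57 to 7.29 (median 6.61) in KRT-19-negative nodules and from 4.88 to 6.22 (median 5.42) in KRT-19-positive nodules. KRT-19-positive arrays lay below all controls, by 2.07 ± 0.19 (SE, adjusted p = 2.05e-13), and KRT-19-negative ones lay in between on average, 1.04 ± 0.19 (SE, adjusted p = 3.36e-05) below control. Treated arrays ran from 4.46 to 5.21 (median 4.68) at 2 d and 4.64 to 5.21 (median 4.89) at 4 d, and none of those 20 arrays detected the gene. Its level was at least 4.56-fold lower than in control at 4 d (adjusted p = 1.15e-16), and at least 1.06-fold and 1.09-fold lower than in untreated KRT-19-positive nodules at 2 d and 4 d (adjusted p = 0.00116 and 0.00627).

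Adamts1 and Adamtsl4 took the other direction with quantile normalisation, lower without T3 and higher after 4 d of it. Adamts1, which cuts versican and aggrecan, was 0.93 ± 0.15 (SE, adjusted p = 8.36e-07) lower than in control and rose by 0.70 ± 0.14 (SE, adjusted p = 3.76e-05) after 4 d. Scaling arrays to a common median in place of quantile normalisation turned its 2 d difference from 0.42 to -0.12, where the median of all features moved by -0.37, and ended its calls against control (-0.30, adjusted p = 0.204) and at 4 d (0.19, adjusted p = 0.424). Adamtsl4, a fibrillin-binding relative without protease activity, was 0.65 ± 0.14 (SE, adjusted p = 0.000151) lower than in control and rose by 1.04 ± 0.13 (SE, adjusted p = 3.9e-09) at 4 d, without overlap from the untreated range; its second probe gave -0.55 and 0.97. Its difference from control was lost under median scaling (-0.12, adjusted p = 0.553). Adamts9 was called in no comparison.

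**Figure D3:**
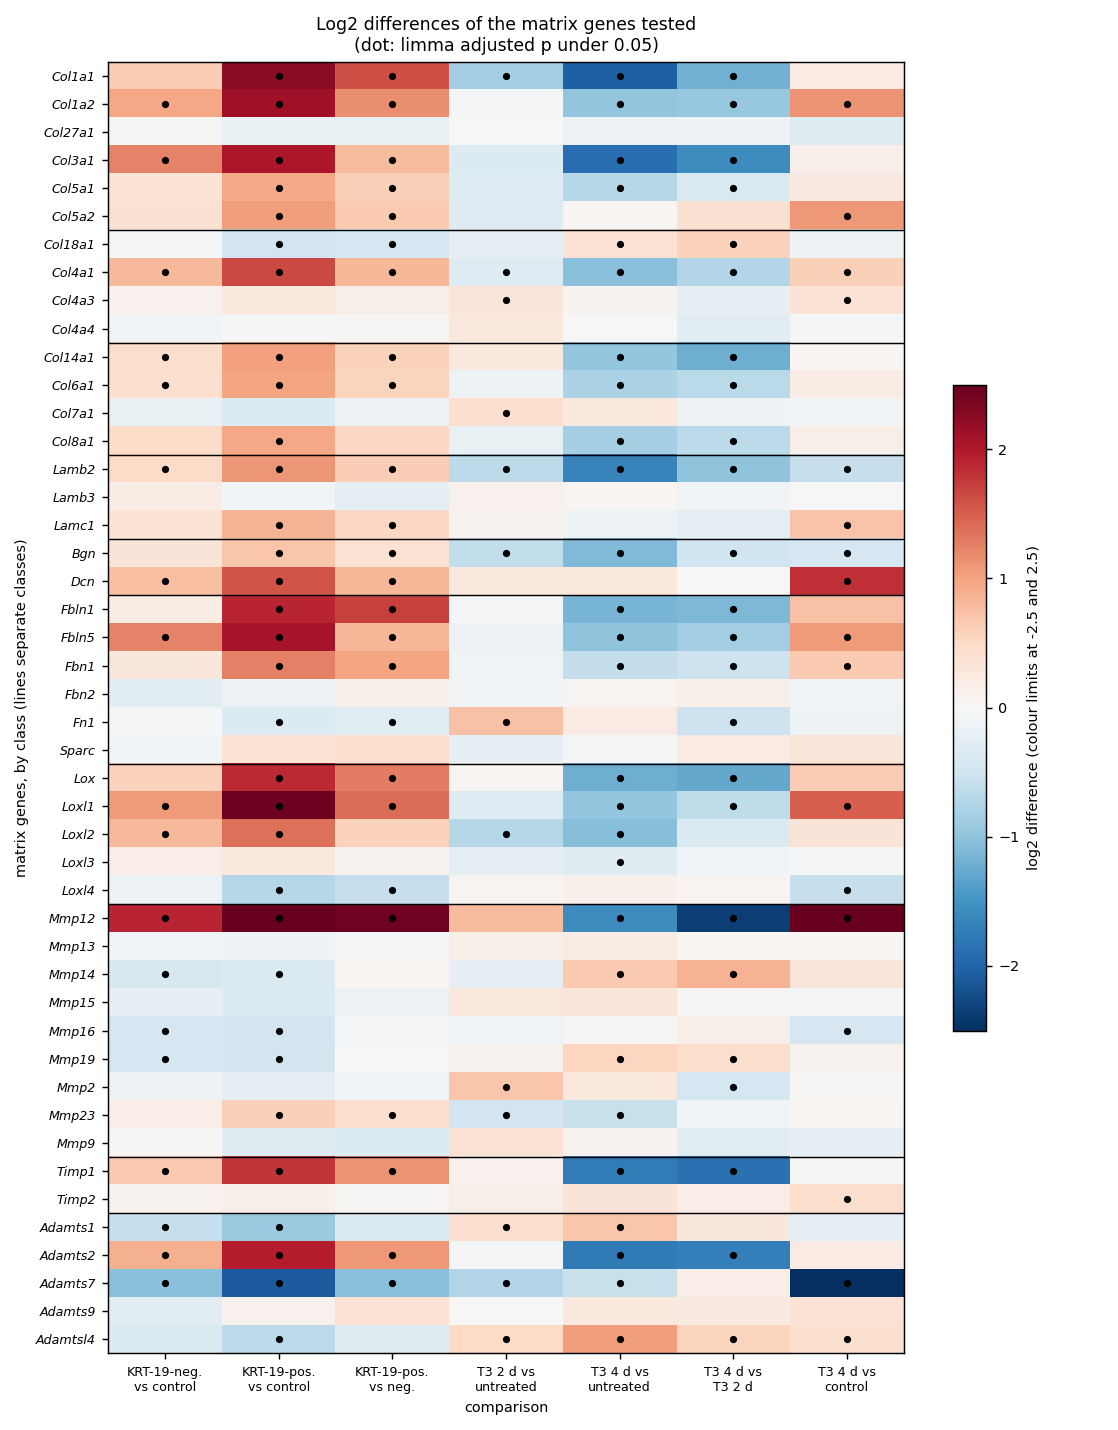
Log2 difference (colour, limited at -2.5 and 2.5) of the 46 tested matrix genes (vertical axis, grouped by class, lines between classes) in the 7 comparisons (horizontal axis); dots mark limma adjusted p under 0.05. Red fills most collagen, fibulin and lysyl oxidase rows for KRT-19-positive nodules against control, where 23 were called higher, and blue fills most of them for 4 d of T3 against no T3, where 22 were called lower.

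The time at which genes changed under T3 differed among those that had been high. Timp1, Adamts2, Lox, Fbln1 and Col1a2 lay within 0.04 to 0.11 of the untreated mean at 2 d, and all 5 fell by the direct test of 4 d against 2 d, by 0.94 to 1.86. Lamb2 and Bgn had already fallen at 2 d and fell again from 2 d to 4 d, by 1.01 ± 0.16 (SE, adjusted p = 7.64e-07) and 0.50 ± 0.13 (SE, adjusted p = 0.00127), the latter lost under median scaling (-0.41, adjusted p = 0.0826). Dcn, Col5a2 and Lamc1 were not called at 4 d against untreated nodules, with differences of -0.13 to 0.26. At 4 d Dcn, Col1a2, Col5a2 and Mmp12 lay above every control array, as did Loxl1 on its brighter probe, and Adamts7 lay below every one. Of all features 42.0% were called in that comparison, and how many lay wholly outside the control range was not counted.

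**Figure D4:**
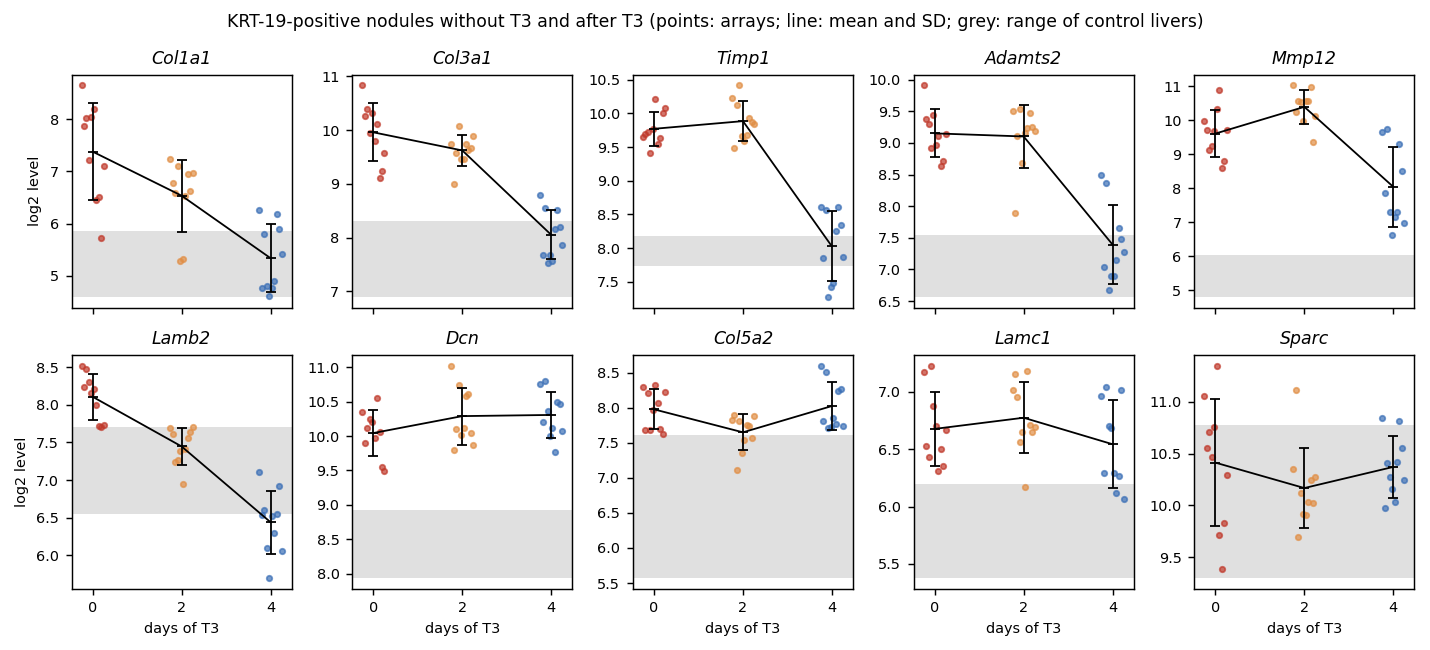
Log2 level (vertical axis) of 10 matrix genes in KRT-19-positive nodules at 0, 2 and 4 days of T3 (horizontal axis); points are arrays, the line joins group means with SD, and the grey band is the range of the 8 control livers. Timp1 and Col3a1 returned to the control band at 4 days, with medians of 8.06 and 8.01, while Dcn, with a median of 10.29, stayed above it.

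The spread within groups was shared by many matrix genes. For each array the mean of the 23 genes called higher in KRT-19-positive nodules was taken relative to their control means; these genes were chosen on control and KRT-19-positive arrays, so their values there are a description. The mean ran from 0.15 to 1.46 (median 0.69) in KRT-19-negative nodules, from 1.17 to 2.15 (median 1.63) in KRT-19-positive ones, from 1.06 to 1.78 (median 1.40) at 2 d of T3 and from 0.09 to 1.29 (median 0.32) at 4 d. Among KRT-19-negative nodules, replicate 2 was highest and was among the top 3 arrays for 20 of the 23 genes. At 4 d of T3 replicates 1 and 3 were each among the top 3 for 21 of the 23, and 4 arrays stood at 0.81 or more while the other 6 lay between 0.09 and 0.34. How often these arrays ranked in the top 3 over all features was not counted. The shared spread is therefore not shown to be particular to matrix genes. The highest 4 d arrays reached the lower end of the untreated KRT-19-positive range, and the lowest came near the control mean.

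In KRT-19-negative nodules this mean went with the Krt19 level of the same array. Replicate 1 was lowest in both, with Krt19 at 6.06 and the matrix mean at 0.15, and replicates 2 and 9 were highest in both, with Krt19 at 9.98 and 10.09 and matrix means of 1.46 and 0.97. At 4 d of T3 replicates 1, 3, 8 and 9 were also highest in both. Their Krt19 levels were 8.77, 8.37, 8.57 and 8.21 and their matrix means 1.29, 1.21, 0.96 and 0.81. In KRT-19-positive nodules replicate 3 was lowest in Krt19 (11.03) but not in the matrix mean (1.69). Correlations were computed for KRT-19-negative nodules alone. Over those 10 arrays Pearson's r was 0.86 and Spearman's rho 0.98. Without the 2 arrays farthest from the median Krt19 level r was 0.79. These are descriptions of 10 arrays that share a platform and a tissue, and the pattern was noticed before it was measured. The genes in the mean were chosen as higher in KRT-19-positive nodules, where Krt19 is high too, so the choice itself favours such a link. Leaving out 2 arrays does not remove that choice, and the same correlation over all features was not computed. Earlier and later title numbers hold 5 of these arrays each, too few for a value within either.

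**Figure D5:**
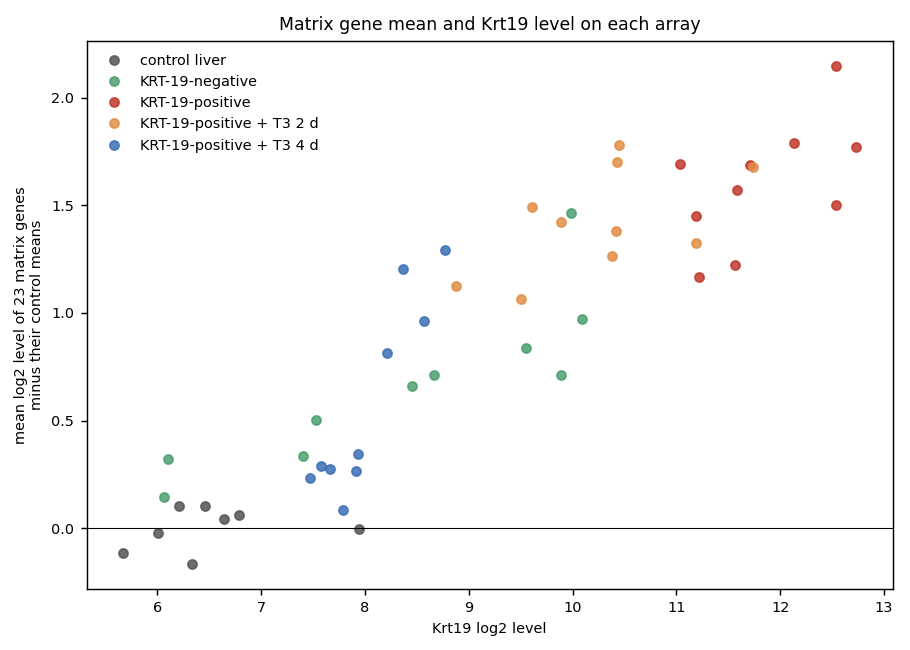
Mean log2 level of 23 matrix genes minus their control means (vertical axis) against the Krt19 log2 level (horizontal axis) on each of the 48 arrays, coloured by group. KRT-19-negative nodules run from 0.15 to 1.46 on the vertical axis and from 6.06 to 10.09 on the Krt19 axis, and nodules after 4 d of T3 fall into 4 arrays at 0.81 or more and 6 arrays lower down.

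The genes around the matrix were read from lists chosen with earlier results of these data known. TGF-beta, the main inducer of collagen synthesis, is stored in the matrix bound to LTBP proteins. Of its list 7 higher and 2 lower of 11 tested differed in KRT-19-positive nodules against control, and after 4 d of T3 2 higher and 5 lower of 11 tested against untreated nodules. Ltbp2 and Tgfb2, a TGF-beta ligand, were detected on no control array and on all KRT-19-positive ones, at least 5.23-fold (adjusted p = 7.01e-14) and at least 3.99-fold higher (adjusted p = 5.73e-13). Like Tgfb1, also detected on no control array, both passed the detection filter through nodule arrays alone. The list was not counted without the filter. At 4 d of T3 Ltbp2 had fallen by 2.48 ± 0.23 (SE, adjusted p = 5.55e-13) and Tgfb2 by 1.96 ± 0.23 (SE, adjusted p = 5.42e-10). Ltbp1 was 2.06 above control and Ccn2, a matricellular target of TGF-beta, 1.49. Ccn2 did not fall with T3: it rose by 1.20 ± 0.16 (SE, adjusted p = 3.34e-08) at 2 d and was 1.90 above control at 4 d. Smad7, which blocks the pathway, was -0.86 against control.

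Enzymes that modify and export collagen had 5 higher and 2 lower of 16 tested in KRT-19-positive nodules against control, with a median of 0.07. Of all features 24.8% were higher and 23.9% lower in that comparison. Fkbp10, a chaperone of lysyl hydroxylase, was 1.25 ± 0.18 (SE, adjusted p = 7.2e-08) higher and Pcolce, an enhancer of procollagen processing, 1.12 ± 0.19 (SE, adjusted p = 2.27e-06) higher, and Pcolce fell by 1.01 ± 0.18 (SE, adjusted p = 4.27e-06) after 4 d of T3. Serpinh1, the collagen chaperone HSP47, differed from control by -0.05 ± 0.17 (SE, adjusted p = 0.815). Bmp1, which removes the C-propeptide of procollagen, was -0.69 against control there and -1.02 against control after 4 d of T3. P4ha1, a prolyl hydroxylase subunit, rose by 0.62 ± 0.12 (SE, adjusted p = 2.35e-05) after 4 d while Col1a1 and Col3a1 fell.

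Receptors for the matrix moved in both directions, 5 higher and 6 lower of 14 tested in KRT-19-positive nodules against control. At 4 d of T3, 6 were higher and 8 lower of 14 tested against untreated nodules. Of all features 24.8% and 23.9% were called in the first comparison and 27.1% and 26.6% in the second. Ddr1, a collagen-binding tyrosine kinase of epithelial cells, went undetected in control liver and stood at least 4.84-fold higher in nodules positive for KRT-19 (adjusted p = 1.11e-13), and it fell by 2.60 ± 0.27 (SE, adjusted p = 6.08e-12) at 4 d of T3. Cd44, the hyaluronan receptor, was 1.73 higher and fell by 1.50 ± 0.19 (SE, adjusted p = 1.95e-09), and Itgb1 was 1.16 higher. Itga5, the fibronectin-binding integrin chain, and Sdc2, a heparan sulfate proteoglycan of the cell surface, were -1.17 and -1.27 against control and rose by 1.00 and 0.96 at 4 d. In the plasminogen system and the cathepsins, 6 of 11 tested were higher and 2 lower than control in KRT-19-positive nodules. The shares of all features were again 24.8% and 23.9%. Ctsl, a lysosomal protease, was at 0.92 and Serpinf2, the plasmin inhibitor, at -0.77.

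Markers of cell types that make or shape matrix are given here, and their part in the results was not tested. In KRT-19-positive nodules 24.8% of all features were higher and 23.9% lower than in control liver. At 4 d of T3 27.1% were higher and 26.6% lower than in untreated nodules. Of 11 stellate cell and fibroblast markers on the array 8 were tested, 5 higher and 2 lower in the KRT-19-positive nodules than in control liver: Cygb was 1.77, Tagln 0.96 and Vim 0.76, whereas Gfap was -1.03 and Des -0.57. The log2 of their summed level ran from 11.08 to 11.54 in control, 10.63 to 11.65 in KRT-19-negative, 11.59 to 12.25 in KRT-19-positive, 11.27 to 12.10 at 2 d and 10.93 to 11.62 at 4 d of T3, with a median of 11.06 in KRT-19-negative nodules, below the 11.44 of control. At 4 d 4 of the 8 were lower than in untreated nodules, Cygb by 1.25. Cholangiocyte markers, among them Krt19 itself, had 6 tested, 5 higher and 1 lower in the KRT-19-positive nodules than in control liver. Their summed levels were 8.76 to 9.23 in control, 9.05 to 11.31 in KRT-19-negative, 11.97 to 13.33 in KRT-19-positive, 10.52 to 12.45 at 2 d and 9.30 to 10.13 at 4 d. Bright genes weigh most in such a sum, and Krt19 is bright and names the groups, so the sum in part restates the labels. A sum without Krt19 was not made. Beside Mmp12, macrophage markers numbered 3 higher and 3 lower of 9 in the KRT-19-positive nodules: C1qc was 0.73 and Marco, of resident macrophages, -3.21. Their summed level ran from 13.49 to 14.26 in control, 13.02 to 13.81 in KRT-19-negative, 13.51 to 14.37 in KRT-19-positive nodules, 13.30 to 13.86 at 2 d and 12.95 to 13.34 at 4 d, where 5 were lower than in untreated nodules.

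The 35 genes not tested were dim and no direction is given for them. They were Col2a1, Col4a5, Col5a3, Col6a2, Col6a4, Col9a2, Col11a2, Col13a1, Col15a1, Col17a1 and Col23a1 among the collagens, Lama1 and Lamc3, Lum and Vcan, Timp3, and Adamts3, Adamts4, Adamts5, Adamts12, Adamts14, Adamts15, Adamts19 and Adamtsl5. The metalloproteinases among them were Mmp1, Mmp3, Mmp7, Mmp8, Mmp10, Mmp11, Mmp17, Mmp20, Mmp21, Mmp27 and Mmp28. Near the limit, Mmp7, matrilysin of epithelial cells, was detected on 7 arrays and Mmp13 on 8. Lum, lumican, was detected on 4.

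Calls that held whichever single array was left out numbered 10 higher and 2 lower for KRT-19-negative nodules against control, 23 and 8 in KRT-19-positive nodules against control, and 20 and 3 between the nodule types. For T3 they numbered 3 higher and 4 lower at 2 d, 5 and 21 at 4 d, 4 and 16 between 2 d and 4 d, and 10 and 4 at 4 d against control. Those lost against control in KRT-19-negative nodules were Mmp16 (-0.34, adjusted p = 0.117 without control replicate 5), Mmp14 (-0.31, adjusted p = 0.112 without KRT-19-negative replicate 1), Col6a1 (0.35, adjusted p = 0.0888 without KRT-19-negative replicate 2), Lamb2 (0.41, adjusted p = 0.0878 without control replicate 4), Loxl2 (0.69, adjusted p = 0.0648 without control replicate 4) and Mmp19 (-0.30, adjusted p = 0.0853 without KRT-19-negative replicate 1). Between the nodule types they were Fn1 (-0.25, adjusted p = 0.0756 without KRT-19-positive replicate 6) and Bgn (0.28, adjusted p = 0.0767 without KRT-19-negative replicate 4), and at 2 d of T3 also Adamts1 (0.35, adjusted p = 0.0511 without T3 2 d replicate 2). Between 2 d and 4 d they were Col5a1 (-0.34, adjusted p = 0.0849 without T3 4 d replicate 2), Loxl1 (-0.52, adjusted p = 0.0863 without T3 2 d replicate 8), Col8a1 (-0.53, adjusted p = 0.0713 without T3 4 d replicate 5) and Mmp2 (-0.39, adjusted p = 0.0513 without T3 2 d replicate 7). Against control at 4 d they also included Adamtsl4 (0.32, adjusted p = 0.0698 without control replicate 6) and Mmp16 (-0.35, adjusted p = 0.0685 without control replicate 5).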

How the data were processed

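RNA from 48 rat liver samples was measured on 1-colour bead arrays. The authors deposited a table of raw intensities and, beside each intensity, a detection p-value set against negative control beads, per the file headers. BeadStudio 3.0.19.0 is named in the submitters' processing notes. A second deposited table holds intensities that the authors had quantile normalised, as read from its values (sorted columns within 2.04% of each other's mean); all 48 columns matched their own array, and it served as an alternative. The genome build is not given in the sources used here.

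Background was removed with normexp, informed by the detection p-values, followed by quantile normalisation and log2 with offset 16 (neqc of limma 3.58.1, R 4.3.3, with the package data.table, version 1.17.8). Each gene was read from its probe with the highest raw mean (3 of the 81 had several). Of 22067 features (13793 of 22523 probes carried a gene symbol and 8730 none), 11558 passed detection (p under 0.05, 8 arrays or more). All arrays entered a single limma fit with a term for each group and a variance trend, and each of 7 contrasts was adjusted after Benjamini and Hochberg across all 11558 features. The precision rests on the 8 or 10 arrays per group. The pipeline was tested on simulated data.

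Members, classes and the 12 further gene lists were chosen with earlier results of these data known. Values were given in full for up to 6 called members of a class with the largest differences, and always for Col1a1, Col1a2, Col3a1, Col4a1, Fn1, Sparc, Dcn, Mmp2, Timp1 and Timp2; some members allowed by this rule are given by their differences alone. Other lists are represented by up to 4 called members per comparison, Krt19 as a check of the labels, and, chosen after their values were seen, Serpinh1, P4ha1, Ccn2 at 2 d, Spp1, Vtn, Alb and Itgb1. Alternatives were other scalings, filters, probes, blocks, weights and covariates and each array left out. Promoter windows are from RefSeq (GRCr8). Whole-array levels of unnamed probes were not analysed here.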

Additional observations from a re-analysis of the deposited data

Results flagged for a closer look

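Values of matrix genes that stood apart from the rest of their group were sought with Dixon's test of the gap at either end, in 230 combinations of gene and group, and 22 passed. The test by itself passes about 1 in 20 groups by chance. T3 2 d replicate 2 held 6 of the 22: it was the highest of its group for Adamts1 (7.83), Mmp14 (10.38) and Sparc (11.11) and the lowest for Adamts2 (7.89), Col14a1 (10.21) and Fn1 (13.58). Without that array 12 rather than 13 matrix genes were called at 2 d against untreated nodules.

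Others at 2 d of T3 were Adamts9 in replicate 1 (4.98), Col4a4 in replicate 6 (6.25), Col7a1 in replicate 7 (5.75), Loxl3 in replicate 10 (5.90) and Mmp15 in replicate 5 (5.94). At 4 d, replicate 5 held both Mmp9 (6.52) and Mmp13 (6.28). In KRT-19-positive nodules they were Col6a1 (10.05) and Loxl1 (8.29), both in replicate 1, and Col18a1 in replicate 7 (10.25). In KRT-19-negative nodules they were Col4a1 (8.94) and Timp1 (9.86), both the highest and both in replicate 2, Lamb3 in replicate 3 (4.89) and Mmp19 in replicate 1 (5.06). In control liver, replicate 2 held Col3a1 (6.89) and Col27a1 (7.79). All values are log2 levels.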

How the results depend on the processing

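With each of the 48 arrays left out in turn, the number of features called ranged from 2237 to 2619 and of matrix genes from 13 to 18 for KRT-19-negative nodules against control, from 5389 to 5701 and 31 to 33 for KRT-19-positive nodules against control, and from 3376 to 3962 and 24 to 28 between the nodule types. The ranges were 3355 to 3723 and 9 to 15 at 2 d of T3, 6004 to 6262 and 26 to 28 at 4 d, 4858 to 5221 and 21 to 25 between 2 d and 4 d, and 4577 to 4919 and 14 to 18 at 4 d against control. Median scaling gave 974 features and 10 matrix genes for KRT-19-negative nodules against control, 5736 features and 21 matrix genes at 2 d of T3, 3421 features between 2 d and 4 d, and 2994 features at 4 d against control. It turned Adamts1 at 2 d to -0.12, and Mmp14 and Mmp19 in KRT-19-positive nodules against control to 0.0897 and 0.0805. For KRT-19-negative nodules against control, a fit to the compared groups alone called 1686 features, and title order as a random block 1685. At 2 d of T3 array weights called 21 matrix genes and the random block 7, and between the nodule types a covariate for detected probes left 16. The causes were not tested. Without background subtraction 25 of the 156 called differences moved by over 1.5 times, all towards 0 and all still called. Title numbers did not pair the arrays (mean correlation of deviations -0.02 over 92 same-numbered pairs; 7 of 48 arrays correlated best with their own number), and a replicate block on them lost 4 calls among 322 tested differences of matrix genes, gained none and called 2281 features for KRT-19-negative nodules against control. Earlier and later title numbers differed within a group in 666 features in control, 1015 in KRT-19-negative and 363 in KRT-19-positive nodules (limma). At 2 d and 4 d of T3 they differed in 1 and 0 features, so this split is uneven across the T3 comparisons. The matrix genes among them were Adamtsl4 and Mmp15 in control, Fbln1 in KRT-19-negative nodules, and Adamts7, Col3a1 and Mmp14 in KRT-19-positive nodules. Title order taken as a random block lost 24 of the 156 calls of matrix genes and gained none. In the earlier and the later arrays alike, all but 2 of the 156 called differences had the same sign, the exceptions being Mmp14 in KRT-19-positive nodules and Adamtsl4 at 4 d of T3, both against control. Slide as a block was not run because the files give none. Dim probes limit what can be seen of the 35 genes not tested.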

Other observations

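Of 17 matrix proteins tested outside the classes above, 7 were higher and 4 lower in the KRT-19-positive nodules than in control liver. The shares of all features there were 24.8% and 23.9%. After 4 d of T3 4 were higher and 5 lower than without it, beside 27.1% and 26.6% of all features. Mgp, matrix Gla protein, an inhibitor of calcification, ranged from 7.86 to 9.50 (median 8.26) in control liver, from 8.54 to 11.92 (median 9.88) in KRT-19-negative nodules and from 10.93 to 12.29 (median 11.75) in KRT-19-positive nodules. It was 3.23 ± 0.30 (SE, adjusted p = 3.42e-13) above control, fell by 1.23 ± 0.28 (SE, adjusted p = 0.000224) after 4 d of T3 and was then still 2.01 ± 0.30 (SE, adjusted p = 2.06e-07) above control. Smoc2, a relative of Sparc, was 2.13 ± 0.24 (SE, adjusted p = 2.15e-10) higher than in control and fell by 1.35 ± 0.23 (SE, adjusted p = 1.89e-06). Mfap4, of elastic microfibrils, and Ogn, a small leucine-rich proteoglycan, were 1.52 and 1.17 above control, with differences of -0.67 and -0.36 at 4 d of T3 that were not called.

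Tgfbi, a collagen-binding protein induced by TGF-beta, went against Tgfb2: it was 1.33 ± 0.14 (SE, adjusted p = 3.35e-11) lower in the KRT-19-positive nodules than in control liver and rose by 0.53 ± 0.13 (SE, adjusted p = 0.000861) after 4 d of T3. Vtn, vitronectin, a plasma protein of hepatocytes, was -0.65 against control and rose by 0.56 ± 0.15 (SE, adjusted p = 0.00154) at 4 d. Spp1, osteopontin, was called in none of the 7 comparisons; its difference in KRT-19-positive nodules against control was 0.58 ± 0.34 (SE, adjusted p = 0.158). Endothelial markers, which vessel basement membranes accompany, numbered 0 higher and 1 lower of 6 in the KRT-19-positive nodules against control, and 3 higher at 4 d of T3, with Lyve1 at 0.88. Hepatocyte markers numbered 1 higher and 3 lower of 8 in the KRT-19-positive nodules, with Tat at -1.27 and Alb at 0.07. Of 8 lymphocyte markers tested, 2 were higher and 1 lower in the KRT-19-positive nodules than in control liver, with Cd3g at 0.88, and 4 were lower at 4 d of T3 than without it. The neutrophil markers tested were S100a8, at -0.73 against control, and Ncf1, which fell by 1.12 after 4 d of T3.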
